A study of Mus musculus with 2 samples.

Results

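The 10 miRNA genes Mir652, Mir378a, Mir149, Mir744, Mir151, Mir21a, Mir423, Mir342, Mir191 and Mir425 were taken by name from 1973 annotated miRNA genes in short-RNA libraries of mouse facial prominences. They are abundant miRNAs, each made from a single place in the genome that lies inside a longer host gene, and they were chosen by their measured level in these same 2 libraries. All levels and ranks below are therefore descriptions without a test. Mir378a and Mir191 were read through Gm25301 and Gm24083, annotated genes on the other strand of the same bases, by their opposite-strand counts.

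The facial prominences are the paired and midline swellings that fuse into the jaws, palate and nose. The 2 libraries were biological replicates 2 and 1 of a single group: healthy tissue of B6NCrl mice at embryonic day 13.5, each pooled from male and female embryos, with RNA under 30 bases sequenced. There was no treatment and no second group, so the data give levels and their spread and no contrast of conditions. How many embryos each pool held is not stated in the labels, and p-values between the libraries set their difference against counting error alone.

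A miRNA is cut from a hairpin in a longer transcript. Drosha trims the hairpin in the nucleus, Dicer cuts it again in the cytoplasm, and 1 of its arms guides Argonaute to messenger RNAs that pair with the seed, bases 2 to 8 of the arm. A hairpin inside an intron or exon of another gene, the host, is usually transcribed with that gene, although some carry a promoter of their own. Mir21a, for example, is known to have its own promoter within Vmp1. Host messenger RNAs are longer than the RNA sequenced here and were not measured.

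The mature arms are shown so that their seeds can be compared with each other. RefSeq (GRCm38.p6) gave both arms for 8 of the 10 genes, and the seed stands in capitals. The counts are per gene and do not tell the arms apart.
mmu-miR-652-5p: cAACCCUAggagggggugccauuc
mmu-miR-652-3p: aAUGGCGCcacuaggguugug
mmu-miR-149-5p: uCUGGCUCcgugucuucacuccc
mmu-miR-149-3p: gAGGGAGGgacgggggcggugc
mmu-miR-744-5p: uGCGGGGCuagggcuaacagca
mmu-miR-744-3p: cUGUUGCCacuaaccucaaccu
mmu-miR-21a-5p: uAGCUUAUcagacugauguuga
mmu-miR-21a-3p: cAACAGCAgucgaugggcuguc
mmu-miR-423-5p: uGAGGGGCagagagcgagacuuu
mmu-miR-423-3p: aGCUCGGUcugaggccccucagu
mmu-miR-342-5p: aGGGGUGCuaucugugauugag
mmu-miR-342-3p: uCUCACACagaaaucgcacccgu
mmu-miR-191-5p: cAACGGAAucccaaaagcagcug
mmu-miR-191-3p: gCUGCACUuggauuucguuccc
mmu-miR-425-5p: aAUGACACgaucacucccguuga
mmu-miR-425-3p: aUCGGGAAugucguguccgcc

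The 16 arms of these 8 genes had 16 different seeds. The arms of Mir151 and Mir378a were not compared. None of the 16 arms was identical to an arm of another gene with a sequence, and none was found inside another hairpin. Seeds shared with genes outside the set belonged to genes with hardly any reads, where genes of chromosome 18 were left out of the comparison. The seed of miR-149-3p is also that of miR-7016-5p and miR-1943-5p, whose genes had 0 and 8 counts in replicate 2 and 9 and 4 in replicate 1. It recurs in miR-6967-5p too, whose genes Gm27775 and Gm27740 had 0 counts in both libraries. The seed of miR-423-5p recurs in miR-6921-5p, with 1 count in replicate 2 and 0 in replicate 1. The seeds of miR-21a-5p and miR-425-5p recur in miR-21c and miR-489-3p, whose genes had 0 counts in both libraries.

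Together the 10 genes had 331078 counts in replicate 2 and 266541 in replicate 1. Replicate 2 held 5771249 counts on the strand of a miRNA gene and replicate 1 held 4562135, and levels are given as counts per 1000000 of those totals (CPM). By this measure the 10 genes came to 5.74% in replicate 2 and 5.84% in replicate 1, a mean of 5.79 ± 0.0748% (SD, n = 2). These totals do not hold the opposite-strand counts of Gm25301 and Gm24083, and with them added the mean share was 5.73%. The mean levels of the 10 genes stepped down from 9754 CPM for Mir652 to 1622 CPM for Mir425, and every gene passed the minimum of 10 counts in both libraries.

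**Figure D1:**
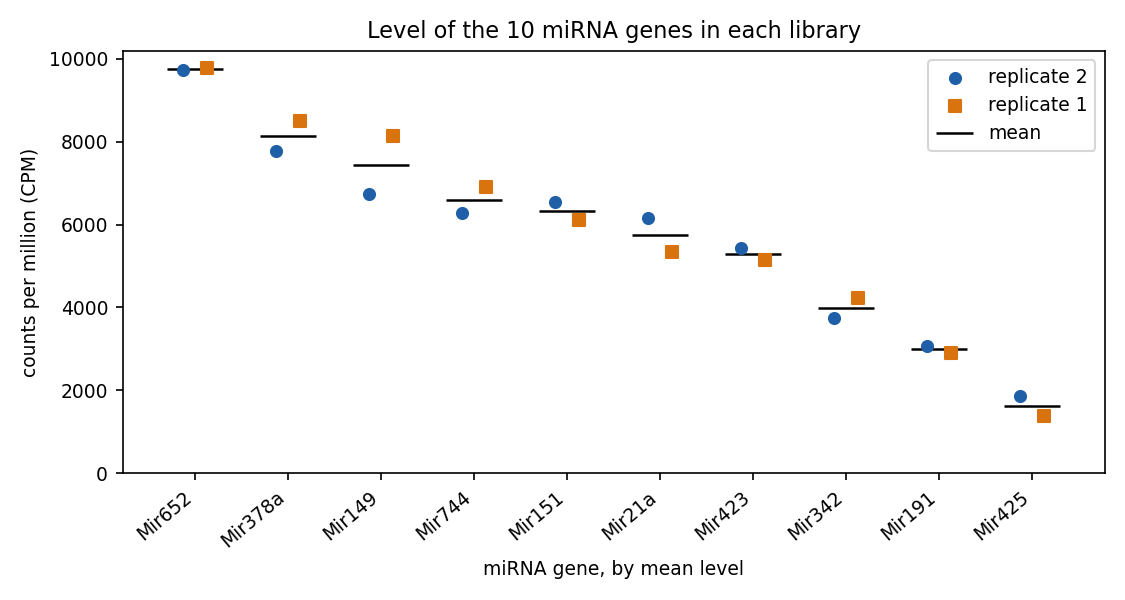
Level of each of the 10 miRNA genes in CPM, with a circle for replicate 2, a square for replicate 1 and a line at their mean. Mir652 stands highest with its 2 points nearly on each other, Mir149 shows the widest gap in CPM, and Mir425 stands lowest.

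Mir652 led the set. Its gene had 56158 counts in replicate 2 and 44609 in replicate 1, or 9731 and 9778 CPM, a mean of 9754 ± 33.6 CPM (SD, n = 2). That is 0.973% of counts in replicate 2 (95% Wilson interval 0.965 to 0.981) and 0.978% in replicate 1 (0.969 to 0.987), and the intervals overlap. The hairpin spans 98 bases of the plus strand of the X chromosome, chrX:142739000-142739097 (GRCm38), within intron 2 of Tmem164, which codes for a membrane protein. It lies 57594 bases from the start of a host of 162089 bases, deep in an intron of 69090 bases.

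Mir378a came next. Its product is known from metabolism and shares its locus with Ppargc1b, which codes for a coactivator of mitochondrial genes. Its bases had 44916 counts in replicate 2 and 38773 in replicate 1, equal to 7783 and 8499 CPM (8141 ± 506 CPM). Mir378a lies on the minus strand at chr18:61397835-61397900 (GRCm38), in intron 1 of Ppargc1b and 2531 bases from that gene's start, and all 66 of its bases fall within Gm25301 on the plus strand. At Gm25301 the plus strand itself had 0 counts in both libraries, which allows up to 0.520 CPM in replicate 2 and 0.658 CPM in replicate 1.

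Mir149 had 38869 counts in replicate 2 and 37141 in replicate 1, or 6735 and 8141 CPM (7438 ± 994 CPM). It showed the widest gap between the libraries in CPM, and its level in replicate 2 lay below that of Mir378a in either library. The hairpin of 66 bases, chr1:92850378-92850443 on the plus strand, sits in intron 1 of Gpc1, which codes for glypican-1, a cell-surface heparan sulphate proteoglycan that binds growth factors.

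Mir744 had 36307 counts in replicate 2 and 31496 in replicate 1, or 6291 and 6904 CPM (6597 ± 433 CPM). It lies on the minus strand at chr11:65734733-65734832, in intron 3 of Map2k4, which codes for a kinase that activates JNK. Within that intron of 15588 bases it sits 359 bases past the upstream exon. Mir151 had 37814 counts in replicate 2 and 27934 in replicate 1, or 6552 and 6123 CPM (6338 ± 303 CPM). Its place is chr15:73254815-73254882 on the minus strand, in intron 22 of Ptk2, the gene of focal adhesion kinase. The order of Mir744 and Mir151 differed between the libraries, with Mir151 higher in replicate 2 and Mir744 higher in replicate 1.

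Mir21a, widely studied for its rise in tumours and injured tissue, had 35543 counts in replicate 2 and 24337 in replicate 1, or 6159 and 5335 CPM (5747 ± 583 CPM). Its hairpin, chr11:86584067-86584158 on the minus strand, is the only one of the 10 that lies in the untranslated end of a coding transcript: it falls in exon 12, the last, of Vmp1, a gene of autophagy, at 99.7% of the length of its host. Mir423 had 31344 counts in replicate 2 and 23471 in replicate 1, or 5431 and 5145 CPM (5288 ± 202 CPM). It lies at the opposite end of its host, Nsrp1, which codes for a splicing regulator: the hairpin at chr11:77078064-77078172 on the minus strand begins 263 bases from the start of the gene, in an intron of 1634 bases. In both libraries Mir21a stood above Mir423, yet the ranges of the pair overlap.

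Mir342 is well known from white blood cells and lies in Evl, which codes for an actin regulator of the Ena/VASP family. It had 21587 counts in replicate 2 and 19282 in replicate 1, or 3740 and 4227 CPM (3983 ± 344 CPM). The hairpin is at chr12:108658620-108658718 on the plus strand, in intron 3, 103900 bases from the start of the host. Of 8 blood miRNA genes looked up for comparison, 7 were found by name and Mir142 was not. These 7, among them Mir223, Mir155 and Mir451a, summed to 674 CPM in replicate 2 and 596 CPM in replicate 1, below Mir342 alone. Without Mir142, and with Mir142b counted on its own strand only, the sum may miss reads of blood miRNAs. The 7 went both ways: Mir223, the most abundant, had 363 CPM in replicate 2 and 383 CPM in replicate 1, while Mir451a had 86.3 and 65.8 CPM. The part of blood cells in the level of Mir342 was not tested. In whole tissue, fewer cells of a type and less RNA per cell cannot be told apart.

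Mir191 and Mir425 are neighbours on the plus strand of chromosome 9, 385 bases from the end of the first to the start of the second, and are known to be cut from a shared transcript. Their hairpins are shown with both arms in capitals, since these are the only 2 of the 10 that lie next to another miRNA gene.
Mir191: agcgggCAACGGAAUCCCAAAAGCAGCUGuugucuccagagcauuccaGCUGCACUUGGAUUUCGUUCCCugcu
Mir425: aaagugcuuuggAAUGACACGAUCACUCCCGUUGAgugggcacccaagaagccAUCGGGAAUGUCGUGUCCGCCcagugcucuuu
Mir191, at chr9:108568319-108568392, had 17733 counts in replicate 2 and 13239 in replicate 1, or 3073 and 2902 CPM (2987 ± 121 CPM). Mir425, at chr9:108568777-108568861, had 10807 counts in replicate 2 and 6259 in replicate 1, or 1873 and 1372 CPM (1622 ± 354 CPM). Mir191 exceeded Mir425 by 1.64-fold in replicate 2 and by 2.12-fold in replicate 1. Of the counts of the pair, Mir191 held 62.1% in replicate 2 (95% Wilson interval 61.6 to 62.7) and 67.9% in replicate 1 (67.2 to 68.6), and the intervals do not overlap. This share needs no scaling of the libraries.

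The host of the pair depends on the annotation. GENCODE M21 places both in the single exon of the non-coding gene 4833445I07Rik, 1642 bases long, and starts the coding gene Dalrd3 1025 bases past the end of Mir425. RefSeq starts Dalrd3 at 108567484 on the same build, so that both hairpins fall inside it. Mir191 was counted through Gm24083, whose 120 bases hold all 74 of Mir191 on the other strand and had 0 counts on their own strand in both libraries. At the 8 other genes of the set, opposite-strand counts came to 1 in all in replicate 2 and 4 in replicate 1, against 268429 and 214529 on the strand of the gene.

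**Figure D2:**
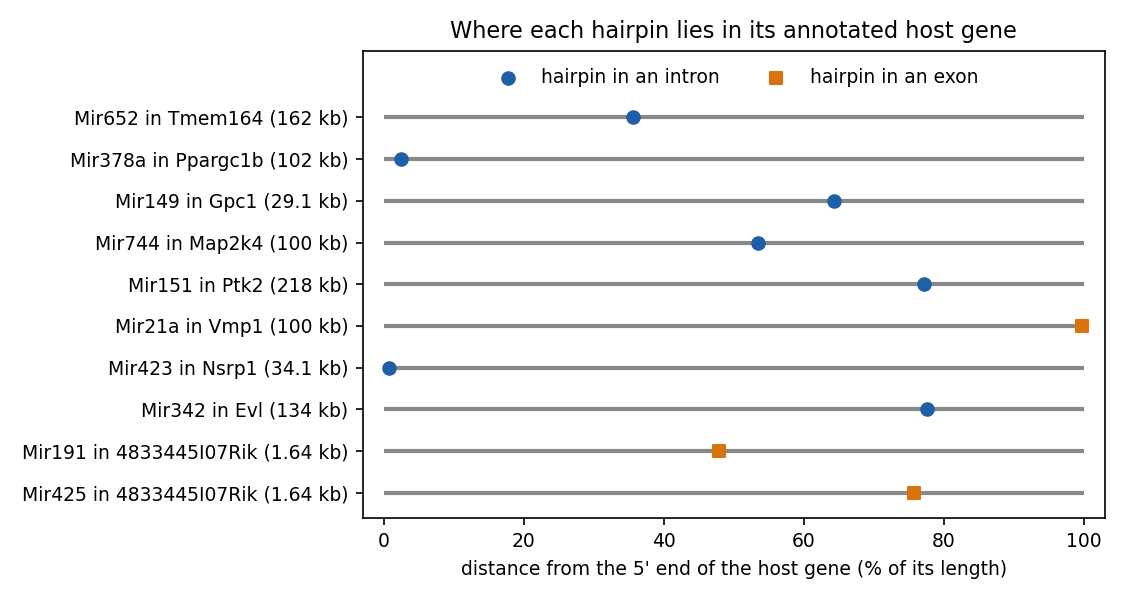
Position of each hairpin along its annotated host gene, as percent of the distance from the 5′ to the 3′ end (each grey bar is a host scaled to the same width, with its length in kb beside its name). Circles mark hairpins in introns and squares hairpins in exons; Mir423 and Mir378a lie near the start of their hosts and Mir21a at the end.

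All 10 hairpins lie on the strand of their host, 7 in introns and 3 in exons. Being in a host was part of the choice, so the count is a description. The choice did not name the intron, and it varied: Mir378a, Mir149 and Mir423 lie in the first intron, Mir652 in the second, Mir744 and Mir342 in the third and Mir151 far downstream. Of these genes 8 have no other annotated miRNA gene within 10 kb on their strand, and Mir191 and Mir425 have each other. Among the 362 genes with at least 10 counts in both libraries, 195 (53.9%) had no neighbour within 10 kb and 246 (68.0%) lay in a host on their strand. Of the 52 other genes ranked between Mir652 and Mir425, 15 (28.8%) had no such neighbour and 36 (69.2%) lay in a host. Coming from a single place was also part of the choice, so the lack of neighbours in the set is a description.

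The hairpins of the 8 genes with a sequence had a median of 52.8% G and C, between 45.7% for Mir21a and 68.2% for Mir149. Over the 314 counted genes with a hairpin sequence, chromosome 18 left out, the median was 50.5%. Folded with RNAfold, the hairpins of the 8 genes had a median free energy of -0.475 kcal/mol per base, against -0.437 over those 314 genes. Mir149 folded most tightly at -0.556 kcal/mol per base and Mir425 least at -0.373. These values are descriptions.

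Ranked by mean CPM with the 2 stand-ins added, Mir652 stood at 24, Mir378a at 28, Mir149 at 31, Mir744 at 34, Mir151 at 35, Mir21a at 37, Mir423 at 41, Mir342 at 49, Mir191 at 60 and Mir425 at 85. Each of these ranks differed between the libraries, least for Mir378a, at 29 in replicate 2 and 28 in replicate 1. Mir652 ranked 26 and 24, Mir342 ranked 52 and 47, and Mir425 differed most, at 78 and 88. Without the stand-ins the other 8 keep Mir652 at 24 and move up by 1 or 2 places, to 83 for Mir425. With all other genes that had mostly opposite-strand counts added as well, Mir423 moved to 42, Mir342 to 51, Mir191 to 62 and Mir425 to 88, and the first 6 kept their places. The set begins just below Mir183 of the sensory cluster, at 10225 CPM in replicate 2 and 9326 in replicate 1, a range that holds both values of Mir652. It ends just above Mir16-1, at 1771 CPM in replicate 2 and 1430 in replicate 1, within the range of Mir425.

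**Figure D3:**
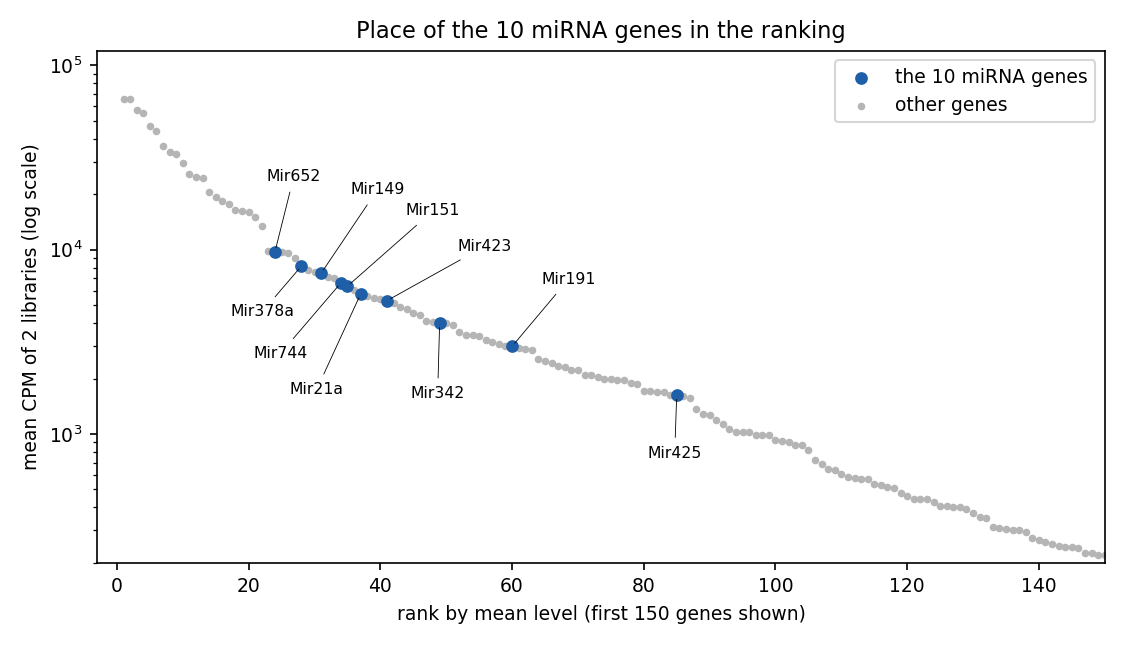
Mean CPM of the 2 libraries on a log scale against rank for the most abundant genes, with the 10 genes in blue and the others in grey. The 10 run from rank 24 to rank 85, and 7 of them lie between ranks 24 and 41.

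The order within the set held in part against the spread. Mir652 stood above all others in both libraries with no overlap, 1614 CPM above Mir378a in the mean, where the combined SD was 508 CPM. From Mir378a down to Mir423, each gene overlapped the next in range. Mir423, Mir342, Mir191 and Mir425 then stepped down without overlap, by 1304, 996 and 1365 CPM, against combined SDs of 399, 364 and 374 CPM. With 2 libraries these are descriptions.

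For each of the 10, the gene outside the set nearest in level over the 2 libraries was found by the distance of log2 CPM. Nearest to Mir423 was Mir30a, at 5361 CPM in replicate 2 and 4946 in replicate 1, a distance of 0.06. Nearest to Mir191 was Mir324, which overlaps an exon of Dvl2, at 3087 CPM in replicate 2 and 2775 in replicate 1, also at 0.06. Mir652 was nearest to Mir183 and Mir425 to Mir16-1, both at 0.10. Mir130b was nearest to both Mir378a and Mir149, Mir411 to Mir744, Mir200c to Mir151, Mir18 to Mir21a and Mir351 to Mir342, at distances between 0.13 and 0.20. Likeness over 2 libraries rests on level alone.

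The relatives of Mir378a and Mir21a, looked up by name, had few reads or none. Their mature sequences are shown, except that of miR-21b, whose seed differs from that of miR-21a-5p. They are given because kin with a like sequence could share reads with these genes.
mmu-miR-378b: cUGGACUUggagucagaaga
mmu-miR-378c: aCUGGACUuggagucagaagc
mmu-miR-378d: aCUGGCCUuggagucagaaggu
mmu-miR-21c: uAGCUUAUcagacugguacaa
Mir378c had 66 counts in replicate 2 and 77 in replicate 1, or 11.4 and 16.9 CPM, so that Mir378a exceeded it by 681-fold and 504-fold. Mir378d had 68 and 54 counts, and Mir378b had 16 and 8. Mir21b and Mir21c had 0 counts in both libraries, which allows up to 0.520 CPM in replicate 2 and 0.658 CPM in replicate 1 for uniquely placed reads. Reads that fit several places in the genome are not in these counts. Mir590, also looked up, was not found by name.

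The kin of Mir151 were a different case, with 2 abundant of the 3 that were found by name. Mir28c, also looked up, was not found. Mir708, in an intron of Tenm4, had 22095 counts in replicate 2 and 13812 in replicate 1, or 3828 and 3028 CPM. Mir28a had 7053 and 6173 counts, or 1222 and 1353 CPM, and Mir28b had 9 and 3 counts. Mir151 exceeded Mir708 by 1.71-fold in replicate 2 and by 2.02-fold in replicate 1, and Mir28a by 5.36-fold and 4.53-fold. The products miR-28a-5p and miR-708-5p share a seed.
mmu-miR-28a-5p: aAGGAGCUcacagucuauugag
mmu-miR-708-5p: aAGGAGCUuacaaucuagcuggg

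The libraries were then compared gene by gene, which asks whether biological replicates give the same level. In all, 9 of the 10 differed by more than counting error (two-sided exact binomial test after TMM scaling, Benjamini-Hochberg adjustment over all 362 genes). The background for this call was high: 200 of the 362 genes (55.2%) were called, and 46 of the 52 other genes ranked between Mir652 and Mir425 (88.5%). The share in the set is near that of genes of like level and is not a result about the set.

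In the set 5 were higher in replicate 2, as were 27.9% of all 362 genes and 46.2% of those 52: Mir151, Mir21a, Mir423, Mir191 and Mir425. A further 4 were higher in replicate 1, as were 27.3% of the 362 and 42.3% of the 52: Mir378a, Mir149, Mir744 and Mir342. Mir425 differed most, at a log2 ratio of replicate 2 to replicate 1 of 0.45 ± 0.0229 (SE from counting error), a 1.37-fold difference (adjusted p = 1.88e-87, exact binomial test). Mir149 was second, at -0.27 ± 0.0105, or 1.21-fold higher in replicate 1 (adjusted p = 2.34e-145, exact binomial test). Mir21a followed at 0.21 ± 0.0120 and Mir342 at -0.17 ± 0.0143.

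The remaining differences were small. Mir744 and Mir378a had log2 ratios of -0.13 and -0.12, Mir151 of 0.10, Mir191 of 0.09 and Mir423 of 0.08. Mir652 did not pass, at 0.00 ± 0.0091 (adjusted p = 0.752, exact binomial test), and the sign of its ratio changed with the scaling, so it has no direction. Ratios this small rest on the scaling of the libraries. In simulated counts whose changes were unbalanced and larger than most ratios here, TMM called unchanged genes well beyond the adjusted threshold. The true scaling did not. In these data the scalings lay close: the ratio of Mir423 was 0.0813 with TMM, 0.0858 with DESeq2 size factors and 0.0781 with total counts. The true scaling is not known here, and closeness of these scalings to each other cannot show that any of them is right. The calls of Mir423, Mir191 and Mir151 held in each scaling. With their smaller ratios they are less firm than those of Mir425, Mir149 and Mir21a. Mir191 and Mir425 moved the same way by unequal amounts.

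The ratios were also set against the spread between biological replicates. The coefficient of variation between the libraries beyond counting noise, estimated in edgeR over the 362 genes, was 17.9%, at which a log2 ratio of 2 libraries has an SD of 0.37. Of the 10 ratios 9 lay within that SD and Mir425 lay outside it. Also within it were 48 of the 52 other genes in its rank span (92.3%) and 252 of all 362 (69.6%), so the share in the set is near that of genes of like level. The median size of the log2 ratio was 0.13 in the set, 0.15 in the 52 other genes of its rank span and 0.24 over all 362. In the set 8 of the 10 lay within 1.2-fold, and so did 42 of those 52 genes (80.8%) and 199 of the 362 (55.0%). Per gene, the SD over the mean of the 2 libraries ran from 0.344% for Mir652 to 21.8% for Mir425, with a median of 6.39% in the set and 7.32% in the 52 genes.

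**Figure D4:**
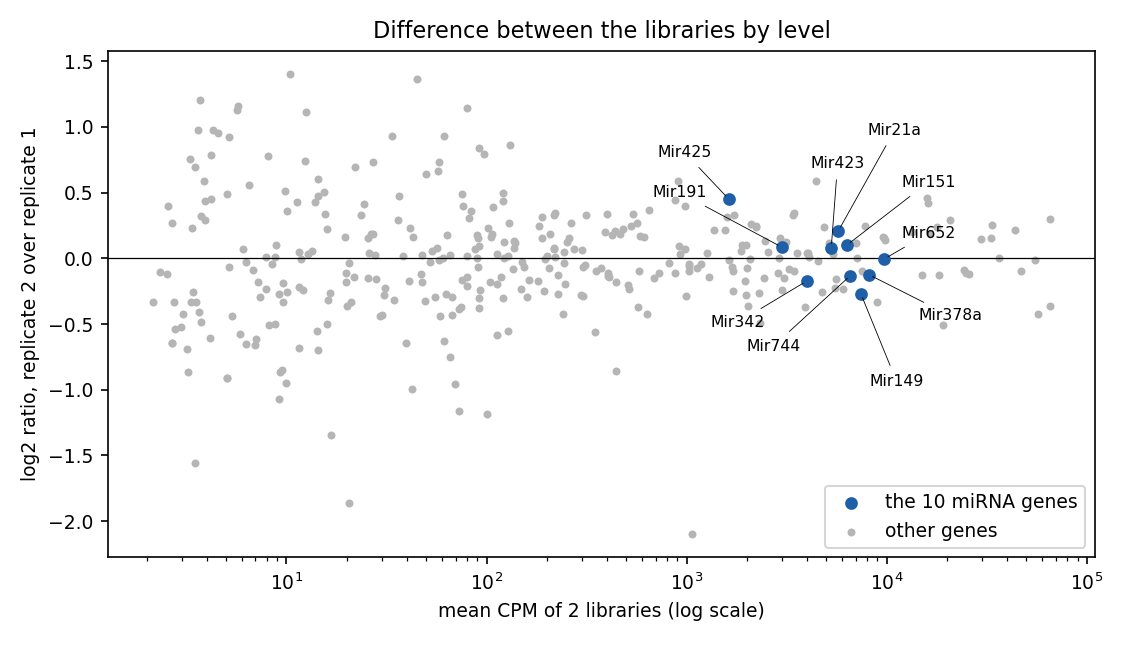
Log2 ratio of replicate 2 to replicate 1 after TMM scaling against mean CPM on a log scale, for the 362 genes with at least 10 counts in both libraries. The 10 genes, in blue, lie between -0.27 for Mir149 and 0.45 for Mir425, on both sides of 0.

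The tissue label was checked against cell type markers. Epithelial miRNA genes (7 of 7 with counts) held 6.33% of counts in replicate 2 and 6.35% in replicate 1, and those of mesenchyme and cartilage (6 of 6) held 5.14% and 4.94%. Within the epithelial list Mir203 had 15805 CPM in replicate 2 and 22575 in replicate 1, while Mir429 had 18412 and 13418. The endothelial gene Mir126a held 2.39% and 2.58%. Muscle genes held 0.0385% and 0.0622%, with 3 of 6 at 0, and neural genes 0.0309% and 0.0324%, with 3 of 6 at 0. Each of these lists named 7 genes, of which 6 were found by name. Several of the main muscle and neural miRNAs come from more than 1 locus, whose shared reads are not counted. The mesenchyme list likewise holds Mir199a-1, at 27.7 CPM in replicate 2 and 20.8 in replicate 1, and Mir199a-2, at 289 and 240 CPM. The mesenchyme share may miss reads these have in common, and which tissue holds more was not tested. Same-strand gene counts took 44.1% of all reads in either library, and those with several places took 31.0% in replicate 2 and 30.7% in replicate 1.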

How the data were processed

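The deposited values are whole-number read counts per miRNA gene, which the authors made on mm10 with the M4 release of GENCODE, according to description files deposited beside them. No source used here gives the aligner, trimming or filters. The files have no header: the 3 columns were read as counts without regard to strand, on the strand of the gene and on the opposite strand, and the first equals the sum of the other 2. Multiply placed reads form a class of their own, so counts are of uniquely placed reads. Lines of read classes stayed out of all gene totals.

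Same-strand counts were used, and opposite-strand counts at Gm25301 and Gm24083. CPM is relative to the same-strand total. Genes were named, placed and given hosts by GENCODE M21 on GRCm38 (1894 of 1973 identifiers matched), and sequences came from RefSeq, GRCm38.p6. A host is any gene other than a short RNA gene that spans the hairpin on its strand. Genes with at least 10 counts in both libraries were scaled by TMM and given a common dispersion with an intercept only in edgeR 4.0.16 (R 4.3.3), and their counts were compared with the exact binomial test, two-sided, in scipy 1.17.1. Log2 ratios used a pseudocount of 0.5 counts. Hairpins were folded with RNAfold 2.7.2. The test and the dispersion were tested on simulated data. In a first simulation, whose changes did not balance between the libraries, the test called far more unchanged genes than its threshold allows. A second simulation, designed after that result with balanced changes, gave few such calls. With the true scaling both gave few, so the excess lay in the TMM scaling and the test was left as it was. Intervals, limits of a count of 0 (3 counts) and the binomial test cover counting error only, since PCR reads without molecular identifiers are not independent molecules.

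The members and lists were chosen with earlier results of these data known. The genes named are the 10, the genes Gm25301 and Gm24083 stand for, their hosts, the gene nearest to each in level, the neighbours in rank and the 10 relatives looked up, of which 8 have a line in the files used here. Genes that share a seed with the set and genes of the cell type lists are named beside them, and those of the closing observations were chosen after their values were seen. Alternatives were DESeq2 1.42.0 size factors, total counts, the unstranded column, other totals, count minimums of 1 and 100 (for single ratios chosen after seeing the data) and each library left out.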

Additional observations from a re-analysis of the deposited data

Results flagged for a closer look

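In 3 places, counts outside the column used exceeded the limit of a count of 0, which is 3 counts. Mir708, kin of Mir151, had 39 opposite-strand counts in replicate 2 and 33 in replicate 1, while opposite-strand counts at the 8 genes of the set read on their own strand did not exceed 2 at any gene. The 9 other genes with more opposite-strand than same-strand counts had 96019 such counts in replicate 2 and 74630 in replicate 1. Multiply placed reads numbered 4058237 in replicate 2 and 3179149 in replicate 1 and have no gene in the files used here. The part of any of these in the levels of the 10 genes was not tested.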

How the results depend on the processing

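The summed share of the 10 genes, 5.79%, was 5.73% with the 2 stand-ins in the total and 6.20% without the most abundant gene in it. It was 5.63% with all opposite-strand genes in the total and 5.63% in the unstranded column. With either library left out it lay between 5.74% and 5.84%. The number of the 10 that differed between the libraries was 9 with DESeq2 size factors, total counts, the unstranded column and a minimum of 100 counts. With a minimum of 1 count it was 10, beside 207 of all 554 genes tested in that setting. Mir652 then had a log2 ratio of 0.0282 (adjusted p = 0.00674, exact binomial test). The ratio of Mir652 was also above 0 with DESeq2 size factors (0.0006) and with a minimum of 100 counts (0.0034), so it has no direction, while the other 9 kept direction and call in all 5 settings. Over all genes, 180 of 261 were called with a minimum of 100 counts and 209 of 369 in the unstranded column. With DESeq2 size factors 199 of 362 were called, and with total counts 200 of 362. The coefficient of variation lay between 16.5% and 19.4%. The minimums of 1 and 100 for single ratios were chosen after seeing the data. No paired analysis was possible because there is 1 group. Neither the test nor the dispersion can be had with a library left out. With 2 libraries, an SD is itself poorly known.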

Other observations

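Of the 52 other genes ranked between Mir652 and Mir425, 11 lie in a host on their strand, have no miRNA gene within 10 kb and have mature arms that no other gene with a sequence shares. Of the 10 genes themselves 6 were found to meet these 3 criteria, since Mir191 and Mir425 are neighbours and the arms of Mir151 and Mir378a were not compared. Mir708 led the 11 genes outside the set at 3428 ± 566 CPM (SD, n = 2). It was followed by Mir872 in Ift74, a gene of ciliary transport, at 3148 ± 186 CPM and by Mir324 at 2931 ± 220 CPM. Mir361, in an intron of Chm, varied least, at 2906 ± 2.38 CPM. Lower down stood Mir107 in Pank1, an enzyme of coenzyme A synthesis, at 1892 ± 88.5 CPM, Mir301 in Ska2 at 1703 ± 83.2 CPM, and Mir455 in the collagen gene Col27a1 at 1699 ± 212 CPM.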
